A study of Mus musculus with 8 samples.

Results

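The 9 genes described here are the Indian hedgehog ligand, its receptors, transcription factors and antagonist, and the PTHrP ligand and receptor, namely Ihh, Ptch1, Smo, Gli1, Gli2, Gli3, Hhip, Pthlh and Pth1r. They were chosen by name, matched by Ensembl identifier, and all 9 of 9 were found among the 50462 identifiers of the deposited table. RNA-seq was performed on medial knee cartilage dissected from individual wild-type male C57BL/6J mice. The 4 naive libraries came from untreated mice at day 0, aged 11 weeks, and the 4 DMM libraries came from mice at day 42 after surgical destabilisation of the medial meniscus of the left knee, aged 17 weeks. In this osteoarthritis model the ligament holding the medial meniscus to the tibia is transected, which destabilises the joint. Sham-operated mice were not analysed here, and the operation and the difference in age cannot be told apart.

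Hedgehog proteins are secreted, lipid-modified ligands. Ihh is made by chondrocytes that leave proliferation and begin hypertrophy in the growth plate. When hedgehog binds Ptch1, the block that Ptch1 places on the membrane protein Smo is lifted at the primary cilium, and the Gli factors change from repressors to activators of transcription. PTHrP, the product of Pthlh, signals through the receptor Pth1r, which acts through cAMP and protein kinase A and keeps chondrocytes from maturing. In the growth plate Ihh induces Pthlh and PTHrP delays the onset of Ihh, so the genes form a loop. Osteoblasts also express Pth1r, and Ptch1, Gli1 and Hhip are known transcriptional targets of the pathway.

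The 250 bases upstream of the annotated starts of Ihh and Pth1r are shown because Ihh, the ligand, had the largest fold change of the 9 genes with all libraries and Pth1r the smallest adjusted p, and because the gene-level count of Pth1r sums transcripts from 3 RefSeq starts. The sequences are RefSeq promoters on build GRCm38.p6, minus strand, read 5′ to 3′ towards the start. Capitals mark GC boxes (GGGCGG or its reverse complement CCGCCC). The window of the third Pth1r start was shortened to 141 bases, since its last 109 bases lie in an annotated exon.
Ihh, chr1:74951673-74951922: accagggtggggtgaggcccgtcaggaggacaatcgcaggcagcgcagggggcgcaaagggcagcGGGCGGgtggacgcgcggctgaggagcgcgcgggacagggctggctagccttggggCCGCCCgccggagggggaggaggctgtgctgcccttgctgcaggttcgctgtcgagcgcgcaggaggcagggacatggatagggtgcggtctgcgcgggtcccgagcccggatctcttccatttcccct
Pth1r start 1, chr9:110747146-110747395: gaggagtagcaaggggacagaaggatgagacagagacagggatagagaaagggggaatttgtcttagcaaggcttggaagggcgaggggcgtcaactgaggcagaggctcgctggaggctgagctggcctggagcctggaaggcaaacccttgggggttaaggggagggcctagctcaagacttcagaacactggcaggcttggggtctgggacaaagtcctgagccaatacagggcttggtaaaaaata
Pth1r start 2, chr9:110743687-110743936: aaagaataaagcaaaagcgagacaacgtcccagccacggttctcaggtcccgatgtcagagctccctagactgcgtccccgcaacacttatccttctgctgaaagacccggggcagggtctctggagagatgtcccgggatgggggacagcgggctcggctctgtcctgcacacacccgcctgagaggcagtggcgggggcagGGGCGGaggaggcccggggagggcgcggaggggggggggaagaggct
Pth1r start 3, chr9:110742720-110742860: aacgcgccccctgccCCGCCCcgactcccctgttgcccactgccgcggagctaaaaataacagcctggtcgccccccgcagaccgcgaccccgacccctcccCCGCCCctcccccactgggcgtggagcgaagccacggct

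The Ihh window was 72.0% G or C with 2 GC boxes. The 3 Pth1r windows differed in composition. The first start, farthest from the others, was 56.0% G or C with 3 CG dinucleotides and no GC box, whereas the second was 65.6% G or C with 16 CG dinucleotides and 1 GC box, and the printed stretch of the third was 73.8% G or C with 15 CG dinucleotides and 2 GC boxes. The median over all 32851 promoter windows of 250 bases was 52.4% G or C, and 32.7% of them held a GC box on either strand. Of the 9 genes, 8 had a RefSeq window (10 windows in all, none for Gli1), and 8 of the 10 held a GC box. The 9-base Gli recognition sequence GACCACCCA and its reverse complement were searched in the same windows. They occurred in 0 of the 10 windows and in 0.225% of all windows, which says only that these letters are not within 250 bases of these starts. The counts do not separate the 3 Pth1r starts.

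All 9 genes had a higher mean in DMM than in naive cartilage. Ihh, Ptch1, Gli3, Pthlh and Pth1r passed both the adjusted p of 0.05 (DESeq2, adjusted over all genes tested) and the change of 1.5-fold that together define a called gene here, and 0 of the 9 were called lower. The same call was made for 7.75% of the 17760 genes tested in the upward direction and for 5.92% in the downward direction. By adjusted p alone, 8 of the 9 genes were higher, against 11.4% of all genes tested, and Hhip was the exception. That count fell to 4 without naive replicate 1, to 5 without naive replicate 2 or without DMM replicate 1, 2 or 3, and to 6 without naive replicate 3. It was 6 with edgeR or with totals without the most abundant identifier, 7 with limma-voom and 4 with a replicate block. With the default DESeq2 filter on mean counts off it was 6, and Smo (adjusted p = 0.0579) and Gli1 (0.0799) were lost. Ihh, Ptch1, Gli3 and Pth1r were among the genes counted each time. In 6 of the 9 genes every DMM library lay above every naive library, which held for 11.9% of all genes tested. The median log2 fold change was 0.73 over the 9 genes and -0.02 over all genes tested.

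**Figure D1:**
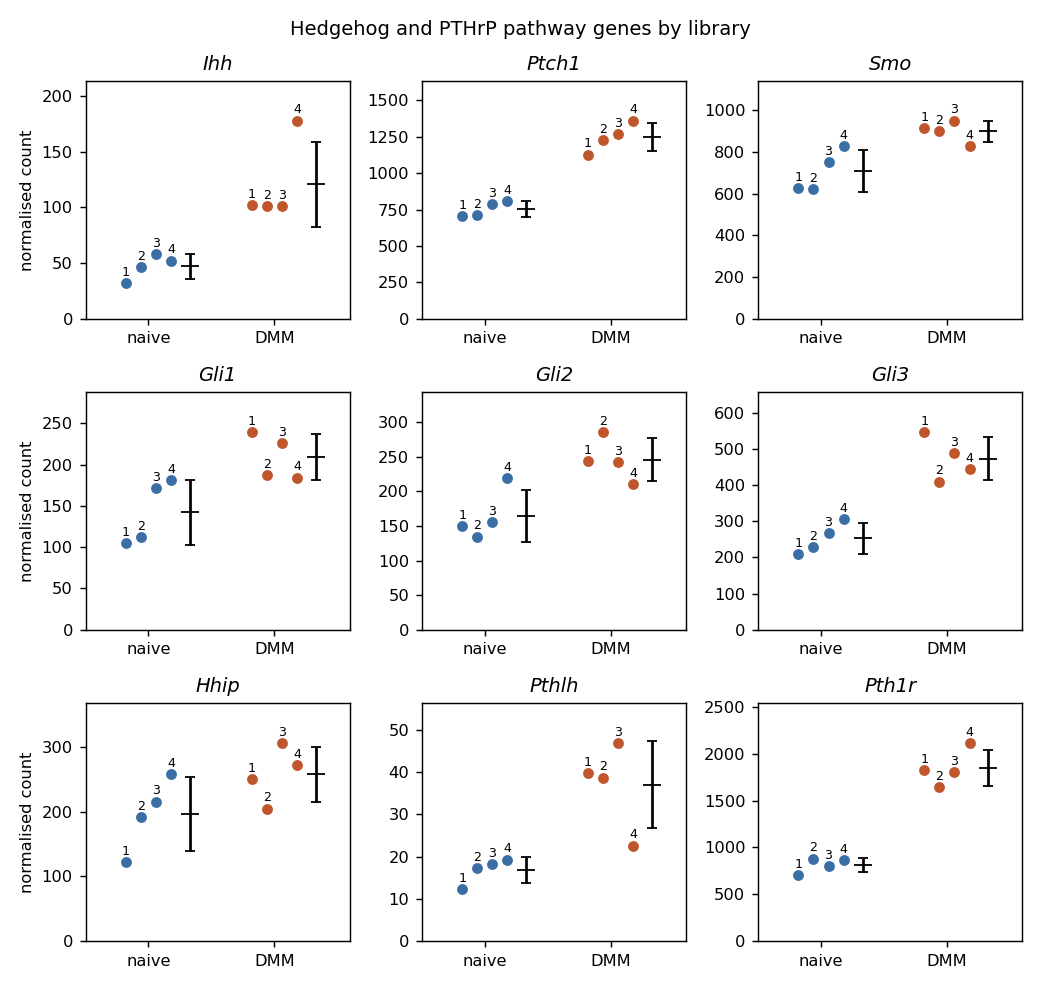
Normalised counts (DESeq2 size factors, linear axis from 0) of the 9 genes in each library. Points are single mice labelled with their replicate number, and the bars to their right are the mean ± SD of 4. For Ihh, Ptch1, Gli1, Gli3, Pthlh and Pth1r the groups do not overlap, and DMM replicate 4 is the highest for Ihh and the lowest DMM value for Pthlh.

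Ihh, the hedgehog ligand of cartilage (ENSMUSG00000006538, chromosome 1, 74945315 to 74951672, minus strand, GRCm38), was counted at 31.7, 46.6, 57.8 and 52.2 normalised counts in naive replicates 1 to 4 and at 102.0, 101.0, 101.3 and 177.8 in DMM replicates 1 to 4. The groups did not overlap. Naive mean was 47.0 ± 11.2 and DMM mean 120.5 ± 38.2 (SD, n = 4 each). This was a rise of 2.57-fold (log2 fold change 1.36, SE 0.28, adjusted p = 3.27e-05, DESeq2). DMM replicate 4 stood above the other 3 DMM libraries, which lay within 101.0 to 102.0, and without it the log2 fold change was 1.12 with an adjusted p of 0.000435. Pthlh, at 1.33, was then the largest of the 9 and Pth1r was also at 1.12.

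The other hedgehog ligands had few counts. Shh had between 2.15 and 8.56 normalised counts in the 8 libraries and Dhh between 0 and 20.7, the groups overlapped for both, and neither received an adjusted p in the main test. Of 8 genes listed for hedgehog ligands and their release, 5 were tested. Of the 5, 2 were called higher and 0 lower (7.75% and 5.92% of all genes tested). Both were Scube genes, which encode secreted proteins that help to release hedgehog from the cell that makes it. Scube1 rose from 410.4 ± 110.8 to 1273 ± 305.8 normalised counts (SD, n = 4 each, log2 fold change 1.63, SE 0.22, adjusted p = 1.80e-11), and its DMM libraries, from 976.1 to 1662, all lay above the naive maximum of 506.8. Scube3 rose from 30.8 ± 7.99 to 66.5 ± 9.05 (log2 fold change 1.12, SE 0.27, adjusted p = 0.000663).

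Ptch1, the hedgehog receptor and a target of the pathway (ENSMUSG00000021466, chromosome 13, 63508328 to 63573598, minus strand), had 705.3, 709.1, 787.7 and 809.6 normalised counts in the naive libraries and 1128, 1229, 1270 and 1361 in the DMM libraries. The lowest DMM value was well above the highest naive value, and the SD was 53.6 in naive and 96.7 in DMM cartilage. Ptch1 rose 1.66-fold (log2 fold change 0.73, SE 0.11, adjusted p = 1.04e-09).

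Smo, the membrane protein that passes the signal on (ENSMUSG00000001761, chromosome 6, 29735503 to 29761365, plus strand), had 625.3, 622.6, 750.3 and 830.0 normalised counts in naive and 914.7, 901.9, 950.8 and 829.4 in DMM cartilage. DMM replicate 4 fell just under naive replicate 4, so the groups overlapped. The log2 fold change was 0.35 (SE 0.13, adjusted p = 0.0299), which is under 1.5-fold. The adjusted p held only without naive replicate 4 or DMM replicate 4 among the 8 fits that left out a library, and was 0.0533 with edgeR. Among 6 co-receptors and other reception genes, all tested, Boc was called higher and 0 were called lower (7.75% and 5.92% of all genes tested). Boc, a co-receptor that binds hedgehog together with Ptch1, rose from 392.6 ± 100.3 to 638.2 ± 131.6 normalised counts (log2 fold change 0.70, SE 0.21, adjusted p = 0.0062), although DMM replicate 4 at 490.1 lay under naive replicate 4 at 498.9 and the change was under 1.5-fold without naive replicate 1 (0.56). The median log2 fold change of the reception list was 0.18.

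Hhip, a membrane-anchored protein that binds hedgehog ligands and limits their action (ENSMUSG00000064325, chromosome 8, 79965851 to 80058006, minus strand), was the only one of the 9 genes without an adjusted p of 0.05 or less. Its counts were 122.2, 191.6, 216.2 and 258.5 in the naive and 250.4, 205.3, 307.1 and 272.6 in the DMM libraries. The groups overlapped, with a log2 fold change of 0.40 (SE 0.22, adjusted p = 0.207). The naive values ranged from 122.2 to 258.5, with replicate 1 the lowest, and the call was absent in every alternative run.

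Gli3, which acts mostly as a repressor when no hedgehog is present (ENSMUSG00000021318, chromosome 13, 15463235 to 15730026, plus strand), had the largest change of the 3 Gli genes. Its counts were 208.4, 228.8, 267.6 and 305.0 in naive and 547.3, 409.6, 487.3 and 444.9 in DMM cartilage. The groups were separated by over 100 normalised counts. Gli3 rose 1.87-fold (log2 fold change 0.91, SE 0.16, adjusted p = 9.04e-07). Gm6556, a gene on the other strand whose exons overlap Gli3, had at most 26.1 normalised counts in any library.

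Gli2, the main activator at the start of the response (ENSMUSG00000048402, chromosome 1, 118834132 to 119053619, minus strand), had 149.5, 134.4, 155.2 and 218.8 normalised counts in naive and 243.8, 285.9, 242.0 and 210.3 in DMM cartilage. Naive replicate 4 lay above DMM replicate 4, and the other values did not cross. The change was 1.49-fold (log2 fold change 0.58, SE 0.18, adjusted p = 0.0121), inside the adjusted p threshold and just under the fold threshold. Gli2 was called by edgeR (log2 fold change 0.59, adjusted p = 0.0355) and by limma-voom (0.61, adjusted p = 0.0279). With a library left out its adjusted p held in 4 of 8 fits and was above 0.05 without naive replicate 1 (0.0627), 2 (0.0597) or 3 (0.0533) or DMM replicate 2 (0.0676).

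Gli1, an activator and the usual readout of the pathway (ENSMUSG00000025407, chromosome 10, 127329882 to 127341974, minus strand), had 104.6, 111.8, 171.2 and 181.4 normalised counts in naive and 239.7, 187.0, 225.6 and 184.1 in DMM cartilage. The groups were separate by less than 3 normalised counts, and naive replicates 3 and 4 lay close to DMM replicates 2 and 4. The change was 1.47-fold (log2 fold change 0.56, SE 0.21, adjusted p = 0.0413), under the fold threshold. The adjusted p was above 0.05 with edgeR, at 0.0736, and with limma-voom, at 0.0508, and in 5 of 8 fits that left out a library. Arhgap9, a gene on the other strand whose exons overlap Gli1, went the other way (log2 fold change -0.55, adjusted p = 0.0121), and without strand information reads of the shared stretch cannot be told apart.

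Among 20 genes of hedgehog transduction, 4 were called higher and 1 lower (7.75% and 5.92% of all genes tested), beside a list median of 0.04. The 4 included Evc and Evc2, whose products hold Smo in a zone at the base of the cilium, and Kif7, the ciliary kinesin that organises Gli proteins. Evc rose from 236.4 ± 56.2 to 386.6 ± 35.5 normalised counts (log2 fold change 0.71, adjusted p = 0.000682) and Evc2 from 296.4 ± 80.4 to 503.4 ± 46.9 (0.76, adjusted p = 0.000651). Kif7 rose from 147.8 ± 38.8 to 225.7 ± 30.4 (0.62, adjusted p = 0.0188). Stk36, a kinase related to fly Fused, rose from 13.3 ± 8.39 to 32.7 ± 3.28 (1.31, adjusted p = 0.0216). The Stk36 call was lost without naive replicate 1 or 2 or DMM replicate 1, 2 or 4 (adjusted p up to 0.0951) and with edgeR (0.0516), and the Kif7 call without naive replicate 1 or 2 or DMM replicate 1 (up to 0.103). Sufu, which holds Gli proteins back in the cytoplasm, had 308.2 ± 10.2 and 408.2 ± 64.4 normalised counts, with a log2 fold change of 0.40 (adjusted p = 0.0227) under the fold threshold. Arrb2, a beta-arrestin used by many receptors, fell from 1496 ± 212.5 to 989.1 ± 120.8 (log2 fold change -0.60, SE 0.14, adjusted p = 0.000398). That call was kept only without naive replicate 4 or DMM replicate 3 or 4 among the 8 fits that left out a library, although the adjusted p held in all 8. The Arrb2 change was also under 1.5-fold with edgeR (-0.577) and limma-voom (-0.575). By adjusted p alone, 5 of the 20 were higher and 2 lower, against 2021 (11.4%) and 1989 of all 17760 genes tested. The second lower gene was Arrb1 (2741 ± 474.2 to 1908 ± 144.9, log2 fold change -0.52, adjusted p = 0.00157), under the fold threshold.

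Of 24 cilium and intraflagellar transport genes in the table, 2 were called higher and 0 lower, with a median of 0.35. That is near the 7.75% of all genes tested that were called higher. By adjusted p alone, 8 were higher and 1 lower, against 2021 (11.4%) and 1989 of all 17760 genes tested. The lower gene was Ift140 (1245 ± 200.3 to 865.2 ± 132.9, log2 fold change -0.52, adjusted p = 0.0054), under the fold threshold. Tulp3, an adaptor that carries receptors into the cilium, rose from 172.3 ± 16.3 to 276.4 ± 14.6 normalised counts (log2 fold change 0.68, SE 0.14, adjusted p = 1.74e-05). Cc2d2a, a protein of the ciliary transition zone, rose from 273.9 ± 68.9 to 417.6 ± 74.6 (0.61, adjusted p = 0.0144), but its groups overlapped and the call was lost without naive replicate 1 or 2 or DMM replicate 1 or 3 (adjusted p up to 0.071). Of 12 other hedgehog target genes, 10 were tested, with a median of 0.61. Beside 7.75% and 5.92% of all genes tested, 3 of the 10 were called higher and 0 lower. These were the forkhead factors Foxc2 (59.1 ± 27.7 to 126.2 ± 14.2, log2 fold change 1.10, adjusted p = 0.00323) and Foxd1 (75.7 ± 24.3 to 122.3 ± 12.7, 0.69, adjusted p = 0.0218), and the secreted Wnt antagonist Sfrp1 (43.3 ± 8.86 to 73.4 ± 16.1, 0.75, adjusted p = 0.023). The Foxd1 call was lost without naive replicate 1 or 2 or DMM replicate 2 or 4 (adjusted p up to 0.106) and with edgeR (0.0547), and the Sfrp1 call without naive replicate 2 or 3 or DMM replicate 2 or 3 (up to 0.118). By adjusted p alone, 4 of the 10 target genes were higher and 1 lower, against the same 2021 and 1989 of 17760. The lower gene was Cdk6 (2014 ± 149.0 to 1407 ± 174.9, log2 fold change -0.52, adjusted p = 0.000255), under the fold threshold.

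Pthlh, which encodes PTHrP (ENSMUSG00000048776, chromosome 6, 147252101 to 147264183, minus strand), was the least abundant of the 9 genes. It had 12.3, 17.3, 18.2 and 19.3 normalised counts in naive and 39.8, 38.7, 46.9 and 22.6 in DMM cartilage. DMM replicates 1 to 3 were at least 38.7, and DMM replicate 4 was close to the naive range. Pthlh rose 2.23-fold (log2 fold change 1.15, SE 0.36, adjusted p = 0.0105). The call was lost without naive replicate 1 (adjusted p = 0.0676), without DMM replicate 1 (0.051) and without DMM replicate 3 (0.0592). The related hormone gene Pth had 0 counts in all 8 libraries, which allows up to 3 counts in a library when counting error alone is considered.

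Pth1r, the receptor that PTHrP shares with parathyroid hormone (ENSMUSG00000032492, chromosome 9, 110722085 to 110747145, minus strand), had 704.4, 879.4, 800.6 and 860.6 normalised counts in naive and 1829, 1643, 1804 and 2117 in DMM cartilage. Every DMM library was far above the naive maximum, with an SD of 78.8 in naive and 197.5 in DMM mice. Pth1r rose 2.28-fold (log2 fold change 1.19, SE 0.12, adjusted p = 1.25e-19), and the call was made in all 8 fits that left out a library. Myl3, which overlaps Pth1r on the other strand, had at most 15.1 normalised counts. Of 22 genes of PTH receptor signalling, 19 were tested, and Plcb1 was called higher and Arrb2 lower. With 1 of 19 in each direction, neither count was above the 7.75% and 5.92% of all genes tested. Without the fold threshold, 5 of the 19 were higher and 2 lower, against 2021 (11.4%) and 1989 of all 17760 genes tested. Plcb1, a phospholipase downstream of Gq, rose from 302.0 ± 18.4 to 493.4 ± 70.4 normalised counts (log2 fold change 0.71, adjusted p = 1.19e-05), with a list median of 0.10.

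**Figure D2:**
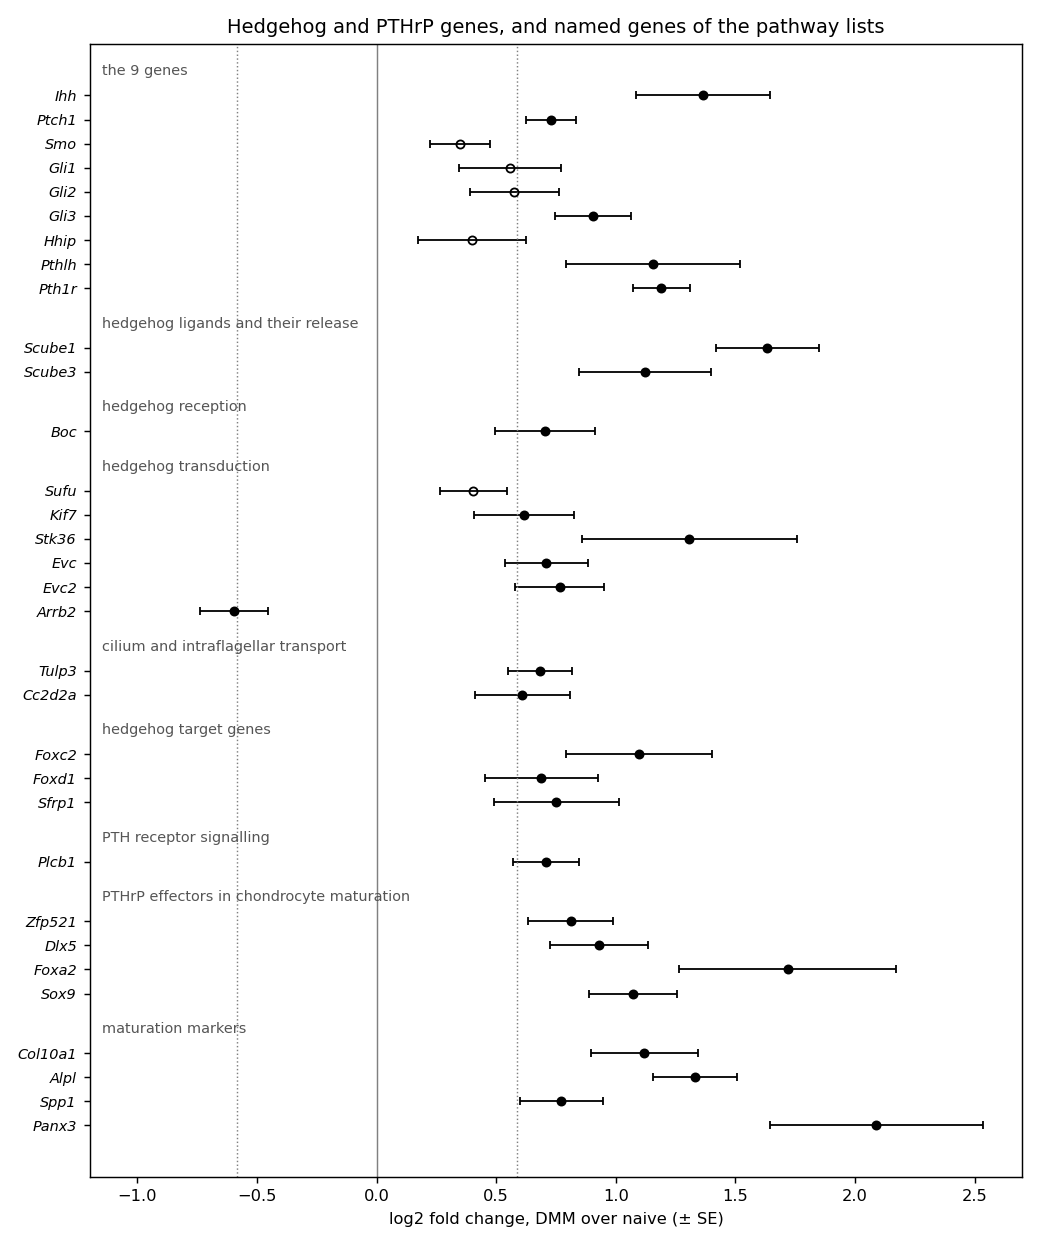
Log2 fold change of DMM over naive (DESeq2, bars are ± SE) for the 9 genes and the named genes of the pathway lists that received an adjusted p. Arrb1, Ift140, Cdk6 and Sox6 are not shown. Filled points passed the adjusted p of 0.05 and the 1.5-fold change (dotted lines), open points did not. All 9 genes lie to the right of 0, with Ihh at 1.36 the farthest and Smo at 0.35 the nearest, and Arrb2 is the filled point on the left.

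Of 18 genes listed as effectors of PTHrP in chondrocyte maturation, 4 were called higher and 0 lower, with a median of 0.31. The same calls were made for 7.75% and 5.92% of all genes tested. By adjusted p alone, 6 were higher and 1 lower, against 2021 (11.4%) and 1989 of all 17760 genes tested. The lower gene was Sox6 (1815 ± 265.8 to 1219 ± 262.5, log2 fold change -0.57, adjusted p = 0.00557), under the fold threshold. Sox9, the master factor of the chondrocyte lineage and a protein kinase A substrate, rose from 839.1 ± 53.1 to 1764 ± 459.1 normalised counts (log2 fold change 1.07, SE 0.18, adjusted p = 5.36e-07). Zfp521, a zinc finger protein that antagonises Runx2, rose from 559.7 ± 138.2 to 981.5 ± 128.9 (0.81, adjusted p = 0.00011). Dlx5, a homeobox factor that promotes hypertrophy, rose from 311.6 ± 92.1 to 593.7 ± 85.1 (0.93, adjusted p = 0.000119). Foxa2, a forkhead factor of hypertrophic chondrocytes, rose from 9.84 ± 1.85 to 32.2 ± 13.5 (1.72, adjusted p = 0.00173), and it received no adjusted p without DMM replicate 2 or 3. All 8 of 8 maturation markers were called higher (7.75% of all genes tested). They included Col10a1, the collagen of hypertrophic cartilage (5779 ± 1411 to 12540 ± 3450, log2 fold change 1.12, adjusted p = 2.14e-05), and Panx3, a channel of hypertrophic chondrocytes and osteoblasts (37.3 ± 16.6 to 157.2 ± 115.0, log2 fold change 2.09, adjusted p = 6.90e-05). Alpl (1.33, adjusted p = 1.98e-11) and Spp1 (0.77, adjusted p = 0.000205) are expressed by both cell types. Across all pathway lists, counting each gene once, 25 of 105 tested genes were called higher and 1 lower. Over all 17760 genes tested, 1377 were called higher and 1052 lower (7.75% and 5.92%).

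Levels were compared between genes as normalised counts per kb of the longest annotated transcript. In naive cartilage Pth1r was the highest at 352 ± 34.1 (SD, n = 4), followed by Smo at 187 ± 26.8 and Ptch1 at 72.5 ± 5.16, and the ranges of these 3 did not overlap. Gli1 at 35.1, Gli3 at 30.9, Gli2 at 24.8, Hhip at 21.7 and Ihh at 19.1 followed, and within these 5 each range overlapped with the next. Pthlh was the lowest at 10.5 ± 1.92, with a range apart from that of Ihh, but not when lengths were taken as the union of all exons. In DMM cartilage Pth1r reached 801 ± 85.6 per kb, Smo 238 ± 13.5 and Ptch1 120 ± 9.32, again with separate ranges. Below them the order was Gli3 (57.8), Gli1 (51.5), Ihh (48.8), Gli2 (37.0), Hhip (28.5) and Pthlh (23.1), and each of these overlapped with the next. Ihh moved from the 8th place in naive to the 6th in DMM cartilage.

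**Figure D3:**
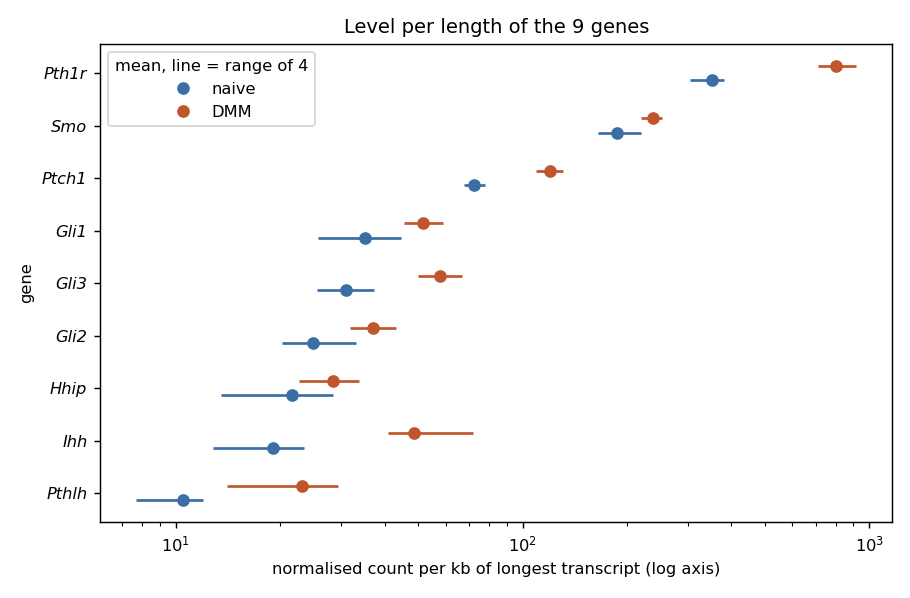
Normalised counts per kb of longest transcript (log axis) for the 9 genes. Points are group means and lines run from the lowest to the highest of 4 libraries. Pth1r, Smo and Ptch1 keep the first 3 places in both groups, and the lines of Ihh do not meet between naive and DMM.

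Markers of bone and marrow cells were detected beside those of cartilage. All 14 chondrocyte markers were detected in every library (lowest count 21), and they took 0.816 ± 0.205% of naive and 1.34 ± 0.252% of DMM counts (p = 0.0286 by two-sided exact permutation, the lowest value 70 assignments can give, and 0.0953 adjusted over 10 marker lists). The lowest DMM share, 1.09%, was just above the highest naive share, 1.08%. Of the 14, 5 were called higher and 0 lower (7.75% and 5.92% of all genes tested). The most counted of the 14 were Prg4 and Col2a1. Mean normalised counts of Prg4 went from 55410 to 38200 (not called) and those of Col2a1 from 23980 to 63820 (called higher). The 12 osteoblast and osteocyte markers, all detected as well, took 1.08 ± 0.184% and 2.84 ± 0.278%, from 0.914 to 1.32% in naive and from 2.59 to 3.19% in DMM libraries (exact permutation p = 0.0286, adjusted 0.0953). Of these 12, 9 were called higher and 0 lower. Most of the summed share was Col1a1, with mean normalised counts of 137600 in naive and 323500 in DMM libraries. The next was Ibsp, at 8953 and 24140. Of 10 neutrophil markers 9 were called lower, with a summed share that went from 1.04 ± 0.141% to 0.631 ± 0.206% (exact permutation p = 0.0286, adjusted 0.0953), and of 8 erythroid markers 7 were called lower (1.47 ± 0.371% to 0.786 ± 0.317%, exact permutation p = 0.0857, adjusted 0.143). Of the other lists, osteoclast (1 of 7 tested), endothelial (3 of 7) and synovial fibroblast (2 of 5) held genes called higher, endothelial held 1 called lower, macrophage, marrow stroma and skeletal muscle held none, and the exact permutation p of their shares lay between 0.0571 and 0.8. In bulk samples fewer cells of a type and less RNA per cell cannot be told apart. The part of these lists in the changes of the 9 genes was not tested.

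Set against the mean log2 level of the osteoblast and osteocyte markers in the same library, which was 0.98 higher in DMM than in naive cartilage, Ihh was still 0.34 higher (log2) with groups that did not overlap. Pth1r was 0.20 higher and Pthlh 0.08 higher, with overlapping groups. Gli3 was 0.07 lower, Ptch1 0.26 lower, Gli2 0.39 lower, Gli1 0.40 lower and Hhip 0.56 lower on that scale, all with overlap, and Smo was 0.63 lower without overlap. Against the chondrocyte markers, which were 0.59 higher with overlapping groups and an SD of 0.54 among naive libraries, the groups of all 9 genes overlapped. On that scale Ihh was 0.74 higher, Pth1r 0.59, Pthlh 0.48, Gli3 0.32 and Ptch1 0.13 higher, Gli1 and Gli2 differed by less than 0.01, and Hhip was 0.17 and Smo 0.24 lower. Against the maturation markers, which were 1.07 higher, Ihh was 0.26 higher with overlapping groups, so the Ihh groups were apart only on the osteoblast and osteocyte scale of these 3. Pth1r was 0.12 higher there with overlap, Pthlh differed by less than 0.001, and Hhip was 0.64 and Smo 0.71 lower, both without overlap. The maturation list shares Alpl and Ibsp with the osteoblast and osteocyte list, so those scales are not independent. All these ratios are descriptions without a test and were added after the values were seen.

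**Figure D4:**
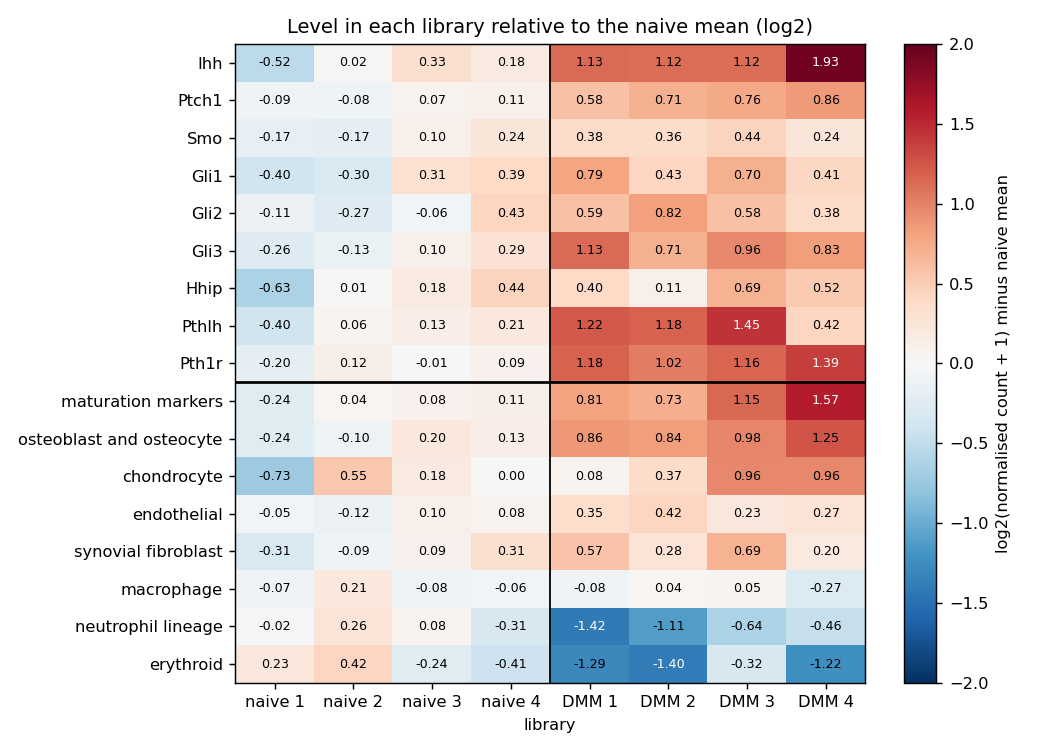
Log2(normalised count + 1) in each library minus the naive mean, for the 9 genes above the line and for the mean over each marker list below it. The maturation list is highest in DMM replicate 4, at 1.57, where Ihh is also highest, at 1.93, and Pthlh is at 0.42, its lowest DMM value. The osteoblast and osteocyte list (1.25) and the chondrocyte list (0.962, against 0.959 in DMM replicate 3) are highest there too. The neutrophil and erythroid lists are below the naive mean in all 4 DMM libraries.

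The DMM libraries varied among themselves in an order that differed between genes. Ihh, Ptch1 and Pth1r were highest in DMM replicate 4, in which the maturation markers (1.57) and the osteoblast and osteocyte markers (1.25, both log2 above the naive mean) were highest as well. Those 2 marker lists share Alpl and Ibsp. The chondrocyte markers were highest in DMM replicate 4 too, at 0.962, nearly level with DMM replicate 3 at 0.959. Pthlh, Smo, Gli1 and Gli2 had their lowest DMM value in DMM replicate 4. Gli1 and Gli3 were highest in DMM replicate 1, Smo, Pthlh and Hhip in DMM replicate 3, and Gli2 in DMM replicate 2. In naive cartilage replicate 1 was lowest for 7 of the 9 genes and replicate 4 was highest for 7 of the 9. With 4 libraries a group these orders are descriptions.

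For each called gene averaging 50 or more normalised counts, the 3 genes with the most similar profile over the 8 libraries were taken from 13198 genes by the root mean square difference of centred log2 values. For Ihh these were Col27a1 (0.134), Nid2 (0.169) and Alpl (0.195). Pygo1 (0.0482), Pde4dip (0.0532) and Sema3g (0.0572) were nearest to Ptch1. The nearest to Gli3 were Mmp14 (0.051), P3h3 (0.0767) and Yap1 (0.0773). Slc8a3 (0.125), Ccn4 (0.135) and Sp7 (0.135) were nearest to Pth1r. These distances include the step between the groups.

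The libraries held 12479400 to 16548000 estimated counts, and 16770 to 19271 genes reached 10 counts, with naive replicate 2 the lowest. Without naive replicate 2 the same 5 of the 9 genes were called.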

How the data were processed

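Medial knee cartilage RNA of 4 naive and 4 DMM mice was sequenced. Per the methods of the study, the authors trimmed reads with Trimmomatic 0.39, pseudo-aligned them with Kallisto 0.46.1 and summed transcripts to genes with tximport 1.14.0 (Ensembl release 103). The deposited values are estimated counts, of which 39.2% are not whole, and they were rounded for testing. The build is uncertain (the methods name GRCm38 with a release of a later assembly), the library kit differs between labels and methods, and strand use was not given in the sources used here. Coordinates are from GENCODE vM21 (GRCm38).

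DMM was compared with naive in DESeq2 1.42.0 (R 4.3.3, Wald test, all 8 libraries, no covariates), and genes were called at 1.5-fold or more where the p, adjusted by Benjamini-Hochberg, was at most 0.05. Normalised counts are counts divided by DESeq2 size factors. Alternatives were edgeR 4.0.16 (quasi-likelihood), limma-voom 3.58.1, TMM and total count scaling, other filters, no fold threshold, a replicate block and each library left out. The fits were tested on simulated data. Marker shares were compared with a two-sided exact permutation test. The text names the 9 genes, up to 4 called genes per direction and pathway list by adjusted p, and Shh, Dhh, Sufu and Pth. Arrb1, Ift140, Cdk6 and Sox6, lower by adjusted p but under the fold threshold, were added after the values were seen. Genes and lists were chosen with earlier results of these data known. Gene lists also held Tctn2 and Ahsp, which were not analysed here, and some listed genes are not reported here and were left out of the lists.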

Additional observations from a re-analysis of the deposited data

Results flagged for a closer look

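Of 42 groups of 4 values examined (the 9 genes, depth and the marker lists), 7 had a value far from the other 3 by Dixon's criterion, where chance alone gives about 1 in 20, or 2.1. Ihh was at 177.8 normalised counts in DMM replicate 4, against 101.0 to 102.0 in the other DMM libraries. The number of genes with 10 or more counts was 16770 in naive replicate 2, against 18280 to 18470 in the other naive libraries. Erythroid markers took 1.26% of counts in DMM replicate 3, against 0.596 to 0.65% in the others. Marrow stroma markers took 0.0991% in naive replicate 1 and 0.129% in DMM replicate 2, against at most 0.0753% and 0.0857% in the other libraries of each group. Skeletal muscle markers took 0.00271% in naive replicate 3 and 0.00644% in DMM replicate 1, against at most 0.000752% and 0.000781%. Leaving out DMM replicate 1 ended the call of Pthlh (adjusted p = 0.051), and leaving out DMM replicate 3 did so too (0.0592).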

How the results depend on the processing

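All 9 genes kept a positive log2 fold change in every alternative run, and Ihh, Ptch1, Gli3 and Pth1r were called in each. Between 4 and 7 of the 9 were called with a library left out. The count was 8 without the fold threshold, where 11.4% of all genes tested were higher. It was 6 with edgeR, limma-voom, TMM factors or totals without the most abundant identifier, and 7 with total count scaling. Total count scaling moved the median over genes averaging 10 or more counts from -0.01 to 0.14 (log2). Gli2 was gained in all 5 of these last alternatives. Shares of all genes called are given here only for the main test, with and without the fold threshold. Under the other settings a gain or loss of these genes cannot be told from a general one. The number of other pathway genes called higher was 39 without the fold threshold, against 25 with it, beside 2021 and 1377 of all 17760 genes tested. The number called lower, 1 in the main test, was 0 with TMM factors, total counts or totals without the most abundant identifier, 2 with the stricter count filter, 5 without the fold threshold, and 0 to 4 with a library left out. It was 1 with edgeR and with limma-voom, although Arrb2 was not called in either. The log2 fold change of Dhh, 0.25 in the main test, ranged from -0.388 (without DMM replicate 1) to 0.765. The cause was not tested.

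Deviations from the group mean correlated at 0.0486, 0.0882, -0.174 and 0.126 between samples with the same replicate number, over 13226 genes. No reference was set beside these values, and whether such samples share more than a number was not tested. With a replicate block 4 of the 9 genes were called and the same number had an adjusted p of 0.05 or less, with Pthlh at an adjusted p of 0.0722, 21 other pathway genes were called higher and 2 lower, Kif7 (adjusted p = 0.0675), Foxd1 (0.056) and Sfrp1 (0.117) were not called, and Dhh had a log2 fold change of -0.227. With 4 mice a group and about 13 to 57 counts for Pthlh, its value rests on few reads.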
